A study of Homo sapiens with 16 samples.

Results

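Collagen chain genes and the genes for the enzymes and chaperone that modify and fold collagen were followed through 2 human breast cell lines treated with 2-deoxy-glucose. The set holds every gene symbol of the array annotation made of COL, a number, A and a number, together with LOX, LOXL1 to LOXL4, PLOD1 to PLOD3, P4HA1 to P4HA3 and SERPINH1. It came to 55 genes of the 19775 measured, of which 43 encode collagen chains and 12 encode enzymes or the chaperone. COL17A1 was not analysed here. The members were represented by 135 probe sets on the array. Of the 55, 42 had several probe sets and 13 had 1, and each gene was followed on the probe set with the highest mean over the 16 arrays.

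The study asked how gene expression depends on glucose metabolism in mammary cells. The first group was MDA-MB-231 breast cancer cells given 50 mM 2-deoxy-glucose (2DG) for 24 h, and the second was MDA-MB-231 cells given water as vehicle. The third group was MCF10A cells, an immortalized mammary epithelial line that is not tumorigenic, given 50 mM 2DG for 24 h, and the fourth was MCF10A cells given water. Each group had 4 arrays, lettered A to D and labelled as biological replicas. 2DG is a glucose analogue that hexokinase phosphorylates but glycolysis cannot use further. Both lines grew in DMEM/F12 with 17.5 mM glucose. MDA-MB-231 cells received fetal bovine serum, while the MCF10A medium held horse serum, hEGF, hydrocortisone, insulin and cholera toxin, so line and medium cannot be told apart. Each cell type is represented by a single line, and the replicas were grown in parallel.

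RNA was hybridised to Affymetrix U133 Plus 2.0 arrays, and the values are the log2 signals of the authors' robust multi-array average (RMA). They ran between 2.38 and 15.15 over the table, and the array medians between 6.17 and 6.22. A gene is called changed at a limma adjusted p under 0.05 (Benjamini-Hochberg over 19775 genes), and a member whose highest group mean stayed under 6 is called dim. On this count 16 of the 55 members were dim. The epithelial and basal marker list had 6 of its 8 genes measured, with array means of 7.61 to 7.89 in MDA-MB-231 cells with 2DG, 7.31 to 7.47 in MDA-MB-231 cells on vehicle, 13.13 to 13.20 in MCF10A cells with 2DG and 12.83 to 12.90 in MCF10A cells on vehicle. CDH1, KRT14 and CDH3 had group means no higher than 6 in MDA-MB-231. The mesenchymal-like list of 6 genes had array means of 10.64 to 10.68 in MDA-MB-231 cells with 2DG and 10.71 to 10.81 on vehicle, and of 10.80 to 10.87 in MCF10A cells with 2DG and 10.16 to 10.32 on vehicle. As means, both lists thus stood higher with 2DG in MCF10A, as did the epithelial list in MDA-MB-231, and their part in the results was not tested. In each case 3 genes were called higher and 1 lower. The lower ones were EPCAM in MDA-MB-231 (-0.58), and KRT14 (-0.32) and ZEB1 (-0.14) in MCF10A. Among the mesenchymal-like genes in MCF10A, S100A4 (2.205) and AXL (1.00) rose most. Of 6 fibroblast markers, PDGFRA and LUM were under 6 in every group and FAP in MDA-MB-231, while PDGFRB, THY1 and DCN were over 6 in every group. The fibroblast list had array means of 5.51 to 5.64 in MDA-MB-231 cells with 2DG and 5.41 to 5.57 on vehicle. Of the endothelial markers CDH5 was under 6 in every group, and PECAM1 averaged 8.21 in MDA-MB-231 cells with 2DG and 7.28 on vehicle (limma adjusted p = 2.06e-08). VWF was over 6 in every group and not called with 2DG in either line. Of the blood markers PTPRC was under 6 in every group, and CD14 averaged 8.72 in MCF10A cells with 2DG and 8.10 on vehicle (limma adjusted p = 4.28e-06). The actin 3'/5' ratio, a control for RNA integrity, was 1.03 ± 0.0714 on the log2 scale in MDA-MB-231 cells with 2DG and 0.597 ± 0.331 on vehicle (SD, n = 4 each), where replicate B stood apart at 1.09. In MCF10A it was 0.55 ± 0.0678 with 2DG and 0.393 ± 0.067 on vehicle (SD, n = 4 each). Without MDA-MB-231 vehicle replicate B, 25 of the 26 members called in that line were called the same way, COL5A1 being the exception. When the actin ratio was added to the fit, 22 of 26 calls in MDA-MB-231 and 26 of 30 in MCF10A were the same. The ratio averaged higher with 2DG in both lines, so this fit cannot fully separate it from the treatment.

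Collagens are secreted as chains that wind into triple helices in the endoplasmic reticulum. Before winding, prolyl 4-hydroxylases and lysyl hydroxylases modify proline and lysine residues, and the chaperone HSP47, encoded by SERPINH1, holds the folded procollagen. Outside the cell, lysyl oxidases form the aldehydes that cross-link collagen fibres, while type IV collagen makes the net of basement membranes on which mammary epithelium sits.

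Some members lie side by side in the genome, and their upstream sequence is shown because the paired genes are compared below. COL4A1 and COL4A2 start 126 bases apart on chromosome 13 and are read away from each other. COL4A6 and COL4A5 do so on the X chromosome with 379 bases between their starts. The sequences are from RefSeq on GRCh38.p14 and are written on the plus strand, so the first gene of each name is read leftwards and the second rightwards. The first is the whole stretch between the starts (chr13:110307158-110307283), and the second is the part that lies within 250 bases of both starts (chrX:108439588-108439708). Capitals mark CCAAT boxes on either strand.
COL4A1 and COL4A2: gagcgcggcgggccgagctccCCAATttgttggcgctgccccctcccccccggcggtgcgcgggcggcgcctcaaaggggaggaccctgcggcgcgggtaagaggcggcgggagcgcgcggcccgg
COL4A6 and COL4A5: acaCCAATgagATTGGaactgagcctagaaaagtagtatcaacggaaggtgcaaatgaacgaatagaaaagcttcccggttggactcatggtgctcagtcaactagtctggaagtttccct

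The 250 bases before the start of 4 modifying genes are shown next, in the direction of transcription. For SERPINH1 (chr11:75562003-75562252, plus strand) capitals mark the heat shock element core, searched as GAA, TTC and GAA or as TTC, GAA and TTC with any 2 bases between the units, because SERPINH1 is a heat shock gene. For P4HA1 (chr10:73096867-73097116, minus strand), P4HA2 (chr5:132227092-132227341, minus strand) and PLOD2 (chr3:146161185-146161434, minus strand) capitals mark the hypoxia response core, ACGTG or GCGTG on either strand, because these hydroxylase genes are textbook targets of the hypoxia-inducible factor.
SERPINH1: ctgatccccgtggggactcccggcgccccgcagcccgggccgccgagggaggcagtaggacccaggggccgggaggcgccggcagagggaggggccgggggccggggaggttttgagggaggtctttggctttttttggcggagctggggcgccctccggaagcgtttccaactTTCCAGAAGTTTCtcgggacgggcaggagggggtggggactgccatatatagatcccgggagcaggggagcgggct
P4HA1: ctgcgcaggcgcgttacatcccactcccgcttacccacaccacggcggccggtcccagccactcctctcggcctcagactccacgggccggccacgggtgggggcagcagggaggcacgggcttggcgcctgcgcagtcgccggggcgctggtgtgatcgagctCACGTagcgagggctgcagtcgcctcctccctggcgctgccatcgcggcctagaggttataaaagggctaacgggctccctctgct
P4HA2: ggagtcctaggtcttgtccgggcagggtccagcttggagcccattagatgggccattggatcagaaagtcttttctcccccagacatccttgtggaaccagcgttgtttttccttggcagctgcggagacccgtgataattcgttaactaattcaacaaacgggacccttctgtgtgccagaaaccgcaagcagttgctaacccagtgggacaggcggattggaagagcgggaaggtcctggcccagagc
PLOD2: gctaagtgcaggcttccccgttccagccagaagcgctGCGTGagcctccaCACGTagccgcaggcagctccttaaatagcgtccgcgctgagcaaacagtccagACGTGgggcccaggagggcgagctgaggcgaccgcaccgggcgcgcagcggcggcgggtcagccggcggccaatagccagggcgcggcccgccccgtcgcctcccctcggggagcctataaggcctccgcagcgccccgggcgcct

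The SERPINH1 stretch held 1 heat shock core, P4HA1 held 1 hypoxia core, PLOD2 held 3, and P4HA2 held 0 hypoxia cores in this window. Of the 55 members, 41 had a RefSeq promoter entry, with 57 windows in all. The hypoxia core was found in 45.6% of the members' windows and in 43.2% of all 35116 windows of that length. The CCAAT box was found in 26.3% of the members' windows and 32% of all, and the heat shock core in 1.75% and 0.441%, where SERPINH1 was the only member with it. The C/EBP-ATF core, TGATGNAA, was found in 1.75% of the members' windows, 1 window of COL21A1, and in 3.14% of all. The ER stress response element, CCAAT and CCACG with any 9 bases between, was found in 0 of the members' windows and in 0.074% of all. The heat shock and CCAAT motifs were chosen after the values were seen, each motif was searched on both strands, and a match is a stretch of letters, not a shown binding site.

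In MDA-MB-231, 14 members rose and 12 fell with 2DG, and in MCF10A 19 rose and 11 fell. The called share was 47.3% of the members in MDA-MB-231, beside 50.9% of all genes, and 54.5% in MCF10A, beside 54.2% of all genes. The members were thus called about as often as genes at large, and the shares called higher were 25.5% of members and 25.5% of all genes in MDA-MB-231 and 34.5% of members and 29% of all genes in MCF10A. The shares called lower were 21.8% of members and 25.4% of all genes in MDA-MB-231 and 20% of members and 25.2% of all genes in MCF10A. Called changes of at least 1 log2 unit were found for 3 members upward (3.05% of all genes) and 4 downward (4.74% of all genes) in MDA-MB-231, and for 5 upward (5.39% of all genes) and 4 downward (5.81% of all genes) in MCF10A. The median log2 change of the members was -0.01 in each line, and over all genes it was 0.03 in MDA-MB-231 and 0.02 in MCF10A. Groups did not overlap for 22 members in MDA-MB-231 (46.9% of all genes) and for 28 in MCF10A (51.6% of all genes). Individual members moved far, and the plot of every member's response shows changes spread on both sides of 0. These are levels per amount of RNA hybridised, so fewer expressing cells and less RNA per cell cannot be told apart.

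**Figure D1:**
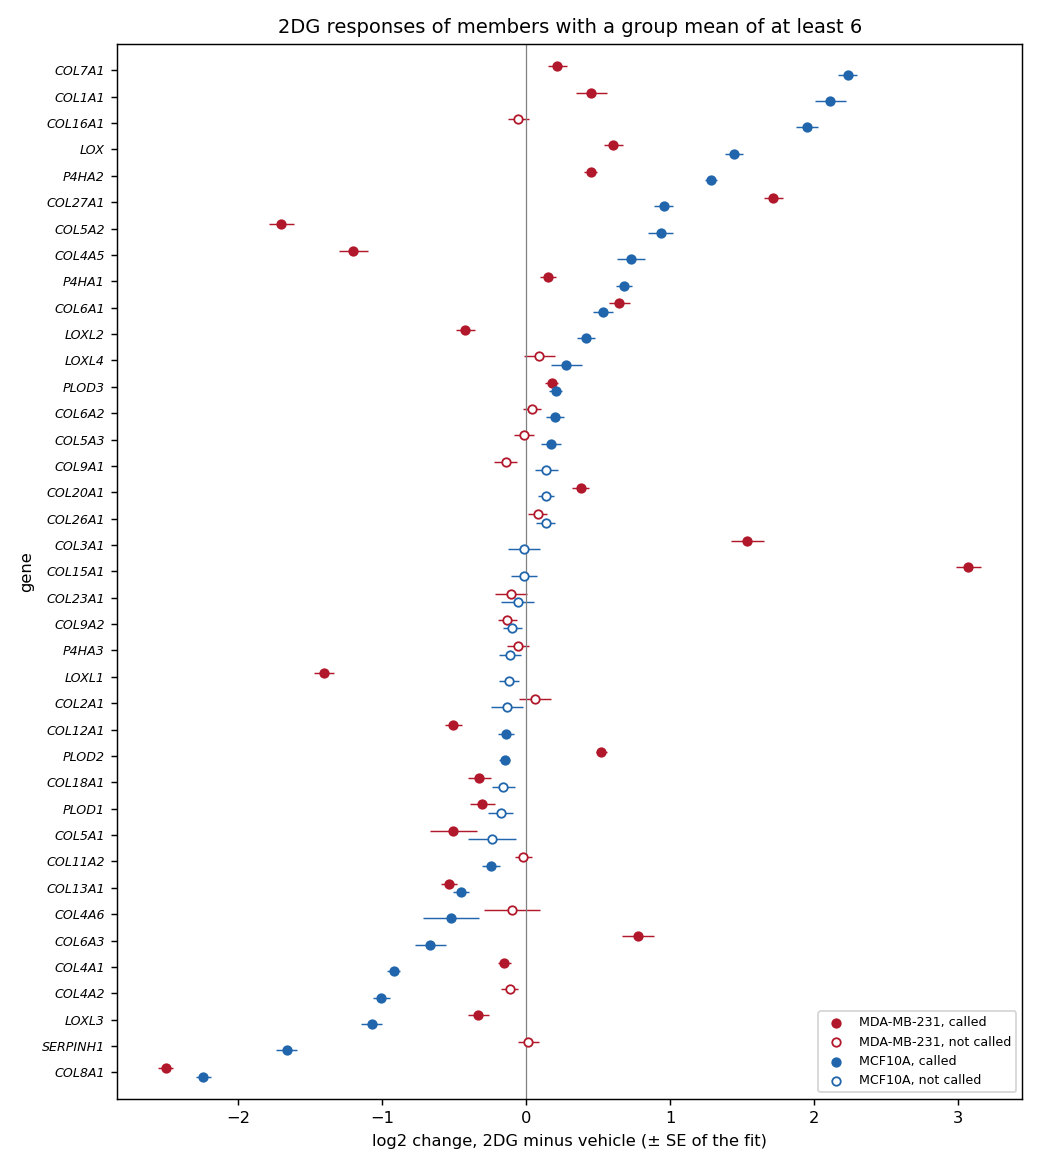
Log2 change with 2DG over vehicle (x axis, ± SE of the fit) of the 39 members whose highest group mean was at least 6 (y axis, ordered by the MCF10A change), in MDA-MB-231 (red) and MCF10A (blue), with filled points for called changes. COL15A1 stands furthest right in MDA-MB-231 at 3.07, COL7A1 in MCF10A at 2.24, and COL8A1 stands furthest left in both lines.

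Across the lines, 9 members rose in both, namely COL1A1, COL6A1, COL7A1, COL21A1, COL27A1, LOX, P4HA1, P4HA2 and PLOD3, which is 16.4% of the members beside 15.3% of all genes. Another 5 fell in both, COL4A1, COL8A1, COL12A1, COL13A1 and LOXL3, which is 9.09% beside 15.9% of all genes. COL6A3 and PLOD2 rose in MDA-MB-231 and fell in MCF10A (3.64% of members, 3.59% of all genes), and COL4A5, COL5A2 and LOXL2 fell in MDA-MB-231 and rose in MCF10A (5.45% of members, 4.64% of all genes). Called in neither line were 18 members (32.7%), and nothing is read from this share, since that of all genes was not counted.

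The prolyl 4-hydroxylase subunits P4HA1 and P4HA2, which carry the catalytic site of the enzyme, rose in both lines and by more in MCF10A. P4HA1 stood at 11.53, 11.63, 11.67 and 11.52 in MDA-MB-231 cells with 2DG, against 11.40, 11.57, 11.45 and 11.33 on vehicle. It stood at 12.12, 12.12, 12.18 and 12.03 in MCF10A cells with 2DG, against 11.49, 11.36, 11.46 and 11.42 on vehicle. The groups overlapped in MDA-MB-231 and were apart in MCF10A, and the log2 change was 0.15 ± 0.05 (limma adjusted p = 0.0288) in MDA-MB-231 and 0.68 ± 0.05 (limma adjusted p = 9.72e-09) in MCF10A. The small change in MDA-MB-231 was no longer called in a fit on that line's arrays alone (limma adjusted p = 0.0682) or without 2DG replicate B or C or vehicle replicate A or D (limma adjusted p = 0.0717 to 0.103), and it was 0.07 with the actin ratio in the fit (limma adjusted p = 0.48). Without vehicle replicate B the MDA-MB-231 change was 0.19 (limma adjusted p = 0.00449). The other P4HA1 probe set, with a mean of 2.98 over the arrays, changed by 0.13 in MDA-MB-231 and 0.11 in MCF10A, not called in either.

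P4HA2 stood at 10.81, 10.83, 10.92 and 10.85 in MDA-MB-231 cells with 2DG, against 10.41, 10.44, 10.38 and 10.39 on vehicle. It stood at 13.14, 13.13, 13 and 12.98 in MCF10A cells with 2DG, against 11.78, 11.73, 11.83 and 11.78 on vehicle. All arrays with 2DG were above all arrays on vehicle in both lines. The log2 change was 0.45 ± 0.04 (limma adjusted p = 1.22e-07) in MDA-MB-231 and 1.28 ± 0.04 (limma adjusted p = 1.54e-13) in MCF10A, a difference of -0.84 between the lines (limma adjusted p = 7.27e-09). In MDA-MB-231 the direction depended on the probe set, since another P4HA2 probe set fell by 1.30 (limma adjusted p, taken over all probe sets, = 2.45e-10). P4HA3, the remaining catalytic subunit, was not called in either line, at -0.06 in MDA-MB-231 and -0.11 in MCF10A.

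The lysyl hydroxylases split by gene. PLOD2, which hydroxylates lysines in the ends of fibrillar collagen chains, stood at 11.88, 11.88, 11.98 and 11.81 in MDA-MB-231 cells with 2DG, against 11.28, 11.39, 11.38 and 11.41 on vehicle. In MCF10A it stood at 12.59, 12.54, 12.52 and 12.57 with 2DG, against 12.72, 12.68, 12.68 and 12.74 on vehicle. The groups were apart in each line but in opposite directions, with a log2 change of 0.52 ± 0.04 (limma adjusted p = 1.01e-08) in MDA-MB-231 and -0.15 ± 0.04 (limma adjusted p = 0.00484) in MCF10A. The second PLOD2 probe set gave 1.22 in MDA-MB-231 and -0.19 in MCF10A.

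PLOD1, the lysyl hydroxylase of the triple helix, stood at 8.80, 8.86, 8.97 and 9.08 in MDA-MB-231 cells with 2DG, against 9.06, 9.55, 9.17 and 9.15 on vehicle. It stood at 9.28, 9.32, 9.29 and 9.26 in MCF10A cells with 2DG, against 9.38, 9.45, 9.51 and 9.52 on vehicle. The MDA-MB-231 groups overlapped at one array and the MCF10A groups did not. PLOD1 fell by 0.31 in MDA-MB-231 (limma adjusted p = 0.00646), a value that came to -0.20 without vehicle replicate B (limma adjusted p = 0.0107) and -0.54 with the actin ratio in the fit (limma adjusted p = 0.000115), and its change in MCF10A was -0.18 (limma adjusted p = 0.0945). That MCF10A change was called without MDA-MB-231 vehicle replicate B in the shared fit (limma adjusted p = 0.0122), on the MCF10A arrays alone (limma adjusted p = 0.00435) and, at -0.26, with the actin ratio in the fit (limma adjusted p = 0.00346).

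PLOD3, which also adds sugars to hydroxylysine, stood at 10.40, 10.43, 10.38 and 10.51 in MDA-MB-231 cells with 2DG, against 10.17, 10.40, 10.21 and 10.23 on vehicle. It stood at 11.13, 11.11, 11.11 and 11.12 in MCF10A cells with 2DG, against 10.92, 10.87, 10.94 and 10.92 on vehicle. The groups overlapped at vehicle replicate B in MDA-MB-231 and were apart in MCF10A. PLOD3 rose by 0.18 in MDA-MB-231 (limma adjusted p = 0.0036) and 0.21 in MCF10A (limma adjusted p = 0.00104), and with the actin ratio in the fit the MDA-MB-231 change was 0.07 (limma adjusted p = 0.331). Without vehicle replicate B it was 0.23 in MDA-MB-231 (limma adjusted p = 6.76e-05).

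SERPINH1, whose upstream sequence is printed above, fell in MCF10A and did not pass the test in MDA-MB-231. It stood at 11.03, 11.14, 11.15 and 11.19 in MDA-MB-231 cells with 2DG, against 11.03, 11.38, 11.02 and 11.02 on vehicle. It stood at 9.71, 9.61, 9.66 and 9.56 in MCF10A cells with 2DG, against 11.32, 11.33, 11.38 and 11.17 on vehicle. The MDA-MB-231 groups overlapped, while in MCF10A every array with 2DG was more than 1 log2 unit under every vehicle array. The log2 change was 0.01 ± 0.07 (limma adjusted p = 0.893) in MDA-MB-231 and -1.67 ± 0.07 (limma adjusted p = 5.82e-12) in MCF10A, and the difference between the lines was 1.68 (limma adjusted p = 1.24e-09).

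**Figure D2:**
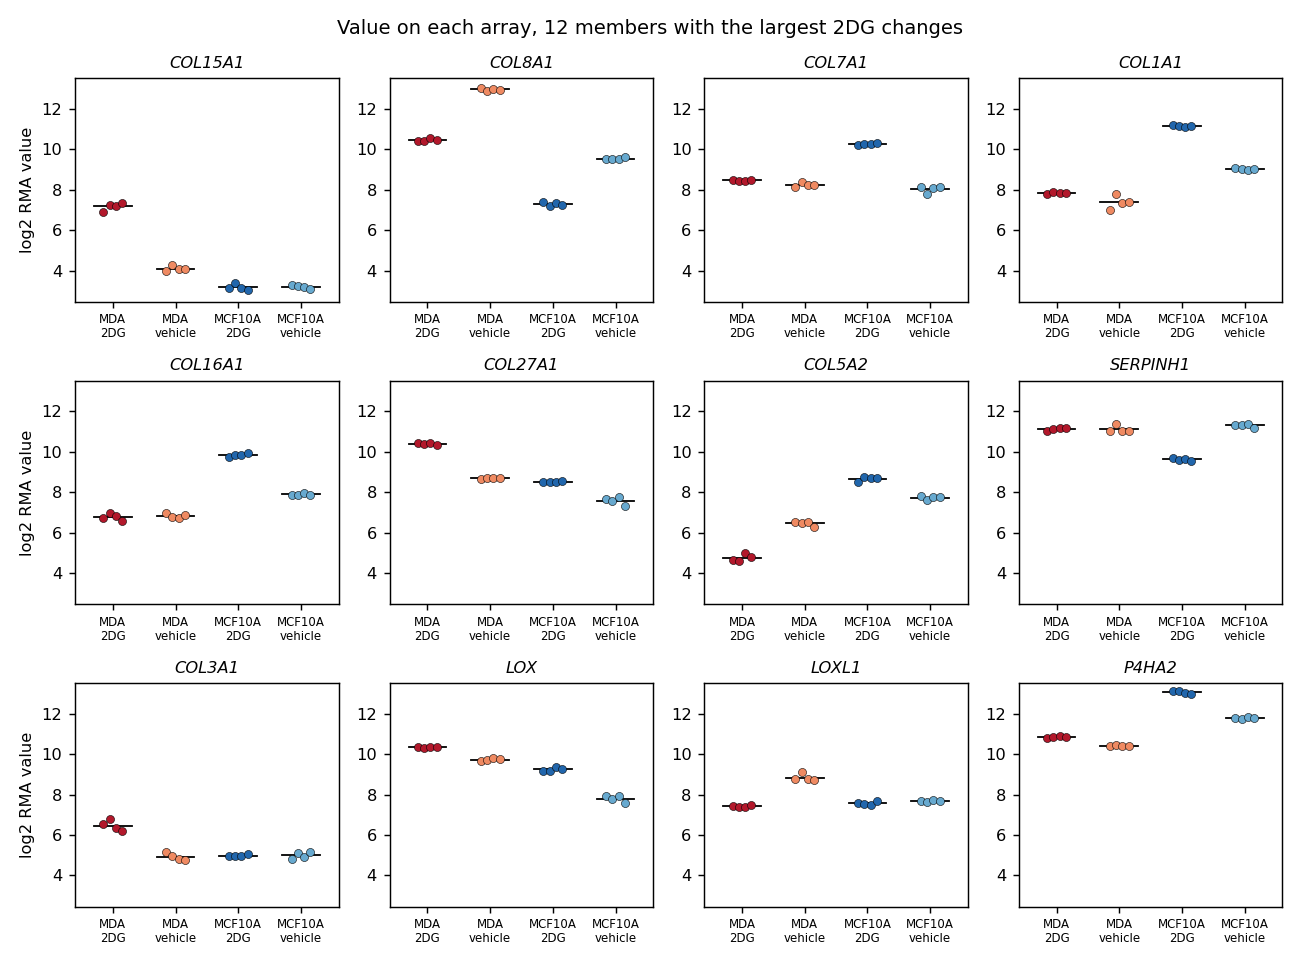
Log2 RMA value (y axis) on each of the 4 arrays of each group (x axis, MDA-MB-231 in red, MCF10A in blue) for the 12 members with the largest 2DG changes; lines are group means, and heights should not be compared between genes, since each has its own probe set. COL15A1 and COL3A1 lie high with 2DG in MDA-MB-231, SERPINH1 lies low with 2DG in MCF10A, and COL8A1 lies low with 2DG in both lines.

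Among the lysyl oxidases, LOX rose in both lines, LOXL1 fell in MDA-MB-231, LOXL2 moved in opposite directions and LOXL3 fell in both. LOX, the founding cross-linking enzyme, stood at 10.33, 10.31, 10.36 and 10.35 in MDA-MB-231 cells with 2DG, against 9.66, 9.70, 9.83 and 9.74 on vehicle. It stood at 9.18, 9.17, 9.35 and 9.28 in MCF10A cells with 2DG, against 7.91, 7.77, 7.92 and 7.60 on vehicle. The groups were apart in both lines, and LOX rose by 0.61 ± 0.06 (limma adjusted p = 4.85e-07) in MDA-MB-231 and 1.45 ± 0.06 (limma adjusted p = 6.22e-12) in MCF10A. The second-brightest LOX probe set gave smaller changes, 0.18 in MDA-MB-231 and 0.23 in MCF10A.

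LOXL1, known for elastin cross-linking, stood at 7.45, 7.38, 7.39 and 7.5 in MDA-MB-231 cells with 2DG, against 8.75, 9.10, 8.75 and 8.73 on vehicle. In MCF10A it stood at 7.57, 7.55, 7.47 and 7.66 with 2DG, against 7.66, 7.64, 7.74 and 7.68 on vehicle. The MDA-MB-231 groups were far apart, and the MCF10A groups overlapped slightly. LOXL1 changed by -1.40 ± 0.07 (limma adjusted p = 3.76e-11) in MDA-MB-231 and -0.12 ± 0.07 (limma adjusted p = 0.179) in MCF10A. The MCF10A change was called without MDA-MB-231 vehicle replicate B in the shared fit (limma adjusted p = 0.0289), after another quantile normalization (limma adjusted p = 0.0458) and, at -0.20, with the actin ratio in the fit (limma adjusted p = 0.00118).

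LOXL3 stood at 6.29, 6.36, 6.26 and 6.24 in MDA-MB-231 cells with 2DG, against 6.64, 6.71, 6.68 and 6.45 on vehicle. It stood at 6.13, 5.88, 6.03 and 6.22 in MCF10A cells with 2DG, against 7.07, 7.04, 7.22 and 7.22 on vehicle. It was lower on every 2DG array of each line, by 0.33 in MDA-MB-231 on the log2 scale (limma adjusted p = 0.000949) and by 1.07 in MCF10A (limma adjusted p = 1.32e-09). LOXL4 stood at 7.73, 7.82, 7.85 and 7.71 in MDA-MB-231 cells with 2DG, against 7.5, 7.80, 7.77 and 7.67 on vehicle, and at 6.38, 6.12, 6.06 and 6.01 in MCF10A cells with 2DG, against 6.13, 5.57, 5.76 and 5.99 on vehicle. These groups overlapped in both lines, and the LOXL4 change of 0.28 in MCF10A (limma adjusted p = 0.0383) lost its call without 2DG replicate A (limma adjusted p = 0.136), without vehicle replicate B (limma adjusted p = 0.145) and in 7 other settings. LOXL2, outside the rule for named genes and chosen after its values were seen, changed by -0.42 in MDA-MB-231 (limma adjusted p = 3.25e-05) and 0.41 in MCF10A (limma adjusted p = 3.5e-05).

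Of the 11 fibrillar chains, which build the collagen fibres of stroma, 3 rose and 2 fell in MDA-MB-231, and 5 rose and 1 fell in MCF10A. The called share was 45.5% in MDA-MB-231 (50.9% of all genes) and 54.5% in MCF10A (54.2% of all genes). COL1A1, the major chain of type I collagen, stood at 7.76, 7.88, 7.83 and 7.84 in MDA-MB-231 cells with 2DG, against 7, 7.79, 7.32 and 7.39 on vehicle. It stood at 11.22, 11.13, 11.08 and 11.16 in MCF10A cells with 2DG, against 9.09, 9.04, 8.98 and 9.03 on vehicle. In MDA-MB-231 the groups overlapped at vehicle replicate B, while in MCF10A they were about 2 log2 units apart. The log2 change was 0.45 ± 0.11 (limma adjusted p = 0.00208) in MDA-MB-231 and 2.11 ± 0.11 (limma adjusted p = 3.77e-11) in MCF10A. With the actin ratio in the fit it was 0.12 in MDA-MB-231 (limma adjusted p = 0.366), and without vehicle replicate B it was 0.59 there (limma adjusted p = 4.71e-06). The 4 other COL1A1 probe sets gave changes in MCF10A of 0.02, 1.36, 0.22 and 0.78, so the size depended on the probe set. COL1A2, whose chain pairs with that of COL1A1 in type I collagen, was dim, with values of 5.47 to 5.85 over all arrays, and was not called in either line.

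COL3A1, the chain of type III collagen, stood at 6.52, 6.77, 6.36 and 6.20 in MDA-MB-231 cells with 2DG, against 5.18, 4.96, 4.79 and 4.77 on vehicle. It stood at 4.96, 4.97, 4.96 and 5.05 in MCF10A cells with 2DG, against 4.83, 5.10, 4.92 and 5.15 on vehicle. Only the MDA-MB-231 2DG arrays stood apart among the 4 groups. COL3A1 changed by 1.54 ± 0.11 (limma adjusted p = 4.11e-09) in MDA-MB-231 and -0.01 ± 0.11 (limma adjusted p = 0.927) in MCF10A. Its vehicle mean of 4.92 in MDA-MB-231 lay under the dim line, so the size there is uncertain. A second probe set gave 1.27 in MDA-MB-231, while the 3 others gave -0.06, 0.16 and 0.14, and without probe sets marked as shared the change was -0.06.

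COL5A1 and COL5A2 encode the chains of type V collagen, which sets the diameter of fibres. COL5A1 stood at 7.82, 8.05, 8.05 and 8.11 in MDA-MB-231 cells with 2DG, against 8.28, 8.76, 8.36 and 8.65 on vehicle. It stood at 5.36, 5.6, 4.57 and 5.05 in MCF10A cells with 2DG, against 5.34, 5.44, 5.46 and 5.30 on vehicle. The groups were apart in MDA-MB-231 and overlapped in MCF10A. The change of -0.51 in MDA-MB-231 (limma adjusted p = 0.0178) was no longer called without 2DG replicate A (limma adjusted p = 0.0558), vehicle replicate B (limma adjusted p = 0.0625) or vehicle replicate D (limma adjusted p = 0.0507). In MCF10A the change was -0.24 (limma adjusted p = 0.25) and was called without 2DG replicate B, at -0.39 (limma adjusted p = 0.0417).

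COL5A2 stood at 4.63, 4.59, 4.97 and 4.81 in MDA-MB-231 cells with 2DG, against 6.52, 6.49, 6.54 and 6.25 on vehicle. It stood at 8.49, 8.75, 8.70 and 8.71 in MCF10A cells with 2DG, against 7.79, 7.62, 7.74 and 7.76 on vehicle. All 2DG arrays were under all vehicle arrays in MDA-MB-231 and above them in MCF10A. COL5A2 changed by -1.70 ± 0.09 (limma adjusted p = 4.38e-11) in MDA-MB-231 and 0.94 ± 0.09 (limma adjusted p = 6.39e-08) in MCF10A, and the difference between the lines was -2.64 (limma adjusted p = 3.52e-11). With 2DG its MDA-MB-231 mean of 4.75 lay under the dim line, so the size of the fall is uncertain. A second probe set gave the same directions, -0.73 in MDA-MB-231 and 1.06 in MCF10A.

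COL27A1, a fibrillar chain known from cartilage, stood at 10.44, 10.39, 10.41 and 10.34 in MDA-MB-231 cells with 2DG, against 8.63, 8.69, 8.68 and 8.71 on vehicle. It stood at 8.50, 8.52, 8.51 and 8.55 in MCF10A cells with 2DG, against 7.64, 7.58, 7.74 and 7.30 on vehicle. It was higher on every 2DG array in both lines, by 1.72 ± 0.07 in MDA-MB-231 (limma adjusted p = 1.95e-12) and 0.96 ± 0.07 in MCF10A (limma adjusted p = 2.1e-09). Both of the next-brightest COL27A1 probe sets were also called higher in both lines.

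The 6 type IV chains of basement membrane gave 2 falls in MDA-MB-231, and 2 rises and 3 falls in MCF10A, which is 33.3% called in MDA-MB-231 (50.9% of all genes) and 83.3% in MCF10A (54.2% of all genes). COL4A1 and COL4A2, which form the common type IV heterotrimer and share the 126 bases printed above, fell together in MCF10A. COL4A1 stood at 10.26, 10.17, 10.16 and 10.17 in MDA-MB-231 cells with 2DG, against 10.28, 10.46, 10.30 and 10.33 on vehicle, and at 9.80, 9.73, 9.73 and 9.76 in MCF10A cells with 2DG, against 10.59, 10.69, 10.69 and 10.73 on vehicle. COL4A2 stood at 11.03, 11.07, 11.01 and 11.17 in MDA-MB-231 cells with 2DG, against 11.08, 11.37, 11.10 and 11.19 on vehicle, and at 10.31, 10.27, 10.19 and 10.33 in MCF10A cells with 2DG, against 11.23, 11.26, 11.30 and 11.34 on vehicle. In MCF10A the groups were apart for both genes, and in MDA-MB-231 they were close for COL4A1 and overlapped for COL4A2. The MCF10A changes were -0.92 ± 0.04 for COL4A1 (limma adjusted p = 1.73e-11) and -1.01 ± 0.06 for COL4A2 (limma adjusted p = 2.02e-10), and the second probe set of each gave -0.65 and -1.07. In MDA-MB-231 COL4A1 changed by -0.15 (limma adjusted p = 0.00864; -0.03 over the mean of its probe sets, adjusted p = 0.61, and -0.27 with the actin ratio in the fit, adjusted p = 0.000227) and COL4A2 by -0.12 (limma adjusted p = 0.124; -0.27 with the actin ratio in the fit, adjusted p = 0.00212).

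COL4A5 and COL4A6, the other divergent pair, were bright in MCF10A and low in MDA-MB-231, and they moved apart with 2DG in MCF10A. COL4A5, which is known from the basement membranes of kidney and skin, stood at 4.97, 5.06, 4.95 and 5.22 in MDA-MB-231 cells with 2DG, against 6.03, 6.43, 6.01 and 6.53 on vehicle. It stood at 11.95, 11.92, 11.97 and 11.96 in MCF10A cells with 2DG, against 11.27, 11.16, 11.24 and 11.21 on vehicle. COL4A6, its partner in the type IV net of skin, stood at 4.11, 4.31, 4.53 and 4.31 in MDA-MB-231 cells with 2DG, against 3.91, 4.42, 4.11 and 5.22 on vehicle. It stood at 10.75, 10.75, 10.68 and 10.78 in MCF10A cells with 2DG, against 11.38, 11.28, 11.19 and 11.20 on vehicle. Every MCF10A array with 2DG was above the vehicle arrays for COL4A5 and below them for COL4A6. COL4A5 changed by -1.20 ± 0.10 in MDA-MB-231 (limma adjusted p = 1.7e-08) and by 0.73 ± 0.10 in MCF10A (limma adjusted p = 5.93e-06). With 2DG its MDA-MB-231 mean of 5.05 lay under the dim line, so the size of the fall there is uncertain. Its other probe set, with a mean of 4.07 over the arrays, gave 0.20 in MDA-MB-231 and -0.19 in MCF10A, neither called. COL4A6 changed by -0.10 ± 0.19 in MDA-MB-231 (limma adjusted p = 0.715) and by -0.52 ± 0.19 in MCF10A (limma adjusted p = 0.0312), and the MCF10A call was lost without 2DG replicate A, B or C or vehicle replicate A or B (limma adjusted p = 0.0535 to 0.0725). It was also lost after another quantile normalization (limma adjusted p = 0.0557). The SE of the shared fit rests on the spread in all groups. For COL4A6 the SD was 0.576 in MDA-MB-231 cells on vehicle. In MCF10A it was 0.0424 with 2DG and 0.0881 on vehicle.

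**Figure D3:**
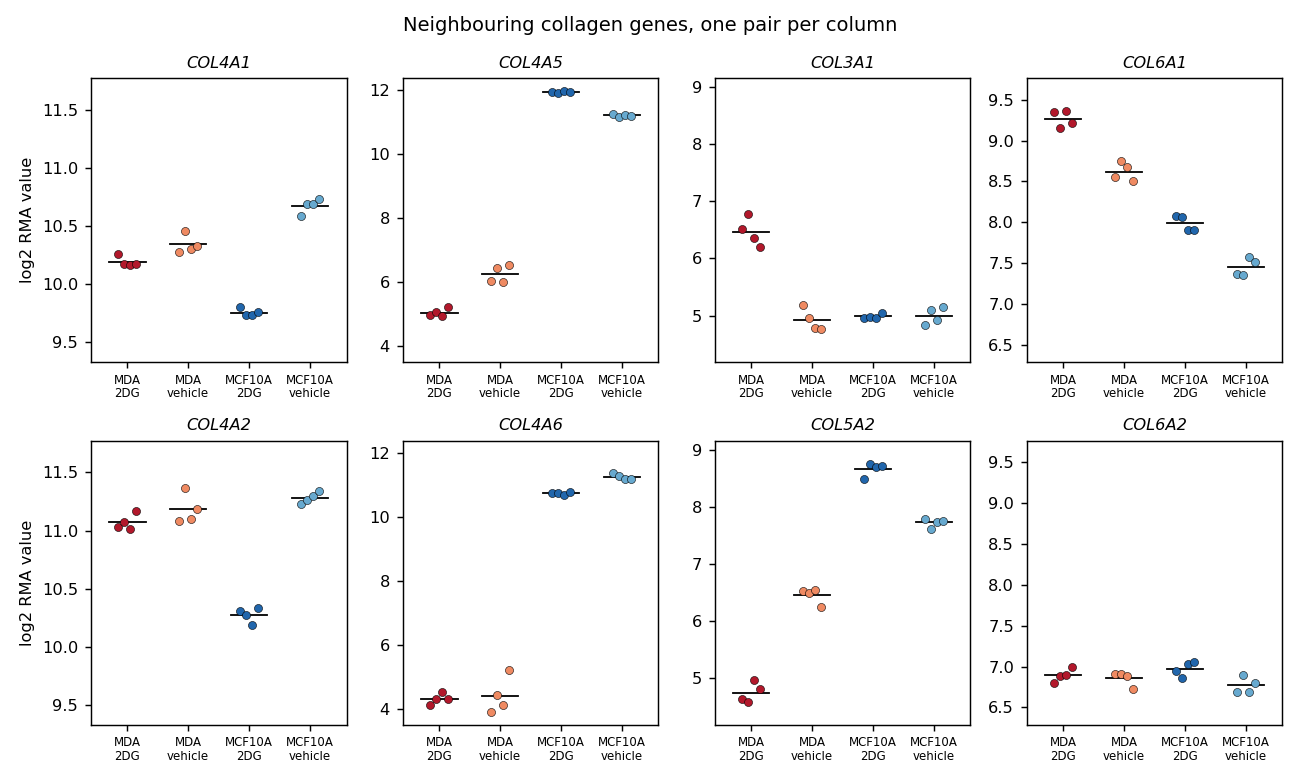
Log2 RMA value (y axis) on each array by group (x axis) for 4 pairs of genes that are next to each other in the genome, one pair per column with a shared scale; lines are group means. COL4A1 and COL4A2 both lie lower with 2DG in MCF10A, while COL4A5 lies higher and COL4A6 lower there.

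COL3A1 and COL5A2 are also neighbours, on chromosome 2, and in MDA-MB-231 the first rose by 1.54 while the second fell by 1.70. COL6A1 and COL6A2, neighbours on chromosome 21, encode chains that assemble with COL6A3 into the beaded filaments of type VI collagen. COL6A1 stood at 9.35, 9.15, 9.36 and 9.21 in MDA-MB-231 cells with 2DG, against 8.55, 8.75, 8.68 and 8.50 on vehicle, and at 8.07, 8.06, 7.90 and 7.91 in MCF10A cells with 2DG, against 7.37, 7.35, 7.58 and 7.51 on vehicle. COL6A1 was higher on all 2DG arrays of each line, by 0.65 in MDA-MB-231 (limma adjusted p = 7.07e-07) and 0.53 in MCF10A (limma adjusted p = 6.04e-06). This rested on its brightest probe set, since without shared probe sets the changes were -0.04 in MDA-MB-231 and 0.01 in MCF10A.

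COL6A2 stood at 6.80, 6.89, 6.90 and 7 in MDA-MB-231 cells with 2DG, against 6.91, 6.91, 6.89 and 6.72 on vehicle, and at 6.94, 6.86, 7.03 and 7.06 in MCF10A cells with 2DG, against 6.69, 6.90, 6.69 and 6.80 on vehicle. The groups overlapped in both lines, with changes of 0.04 in MDA-MB-231 (limma adjusted p = 0.648) and 0.20 in MCF10A (limma adjusted p = 0.012). The MCF10A change was not called after another quantile normalization (limma adjusted p = 0.052). Without shared probe sets it was 0.095 and not called (limma adjusted p = 0.352). COL6A3 stood at 9.86, 9.87, 9.77 and 9.82 in MDA-MB-231 cells with 2DG, against 8.84, 9.21, 9.15 and 9.02 on vehicle, and at 6.33, 5.87, 6.05 and 6.5 in MCF10A cells with 2DG, against 6.94, 6.78, 6.77 and 6.92 on vehicle. Its groups were apart in both lines and in opposite directions, with changes of 0.78 ± 0.11 in MDA-MB-231 (limma adjusted p = 1.32e-05) and -0.67 ± 0.11 in MCF10A (limma adjusted p = 6.04e-05).

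COL7A1, the collagen of the anchoring fibrils that tie epithelium to stroma, rose strongly in MCF10A. It stood at 8.49, 8.44, 8.43 and 8.48 in MDA-MB-231 cells with 2DG, against 8.11, 8.37, 8.25 and 8.24 on vehicle, and at 10.23, 10.25, 10.25 and 10.32 in MCF10A cells with 2DG, against 8.11, 7.80, 8.08 and 8.12 on vehicle. The groups were apart in both lines, by a small margin in MDA-MB-231. The log2 change was 0.22 ± 0.07 (limma adjusted p = 0.0107) in MDA-MB-231 and 2.24 ± 0.07 (limma adjusted p = 3.15e-14) in MCF10A, with a difference between the lines of -2.02 (limma adjusted p = 3.47e-11). The MDA-MB-231 change was 0.09 with the actin ratio in the fit (limma adjusted p = 0.451) and 0.26 without vehicle replicate B (limma adjusted p = 0.00393). The other COL7A1 probe set gave 0.15 in MDA-MB-231 and 2.59 in MCF10A.

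COL8A1, a short-chain collagen that forms open nets in vessel walls and the eye, fell in both lines and by more than any other member in each. It stood at 10.43, 10.40, 10.54 and 10.45 in MDA-MB-231 cells with 2DG, against 13.03, 12.89, 12.97 and 12.95 on vehicle, and at 7.4, 7.17, 7.34 and 7.24 in MCF10A cells with 2DG, against 9.50, 9.51, 9.52 and 9.59 on vehicle. All 2DG arrays were at least 2 log2 units under the vehicle arrays of their line. The change was -2.51 ± 0.05 (limma adjusted p = 1.74e-15) in MDA-MB-231 and -2.24 ± 0.05 (limma adjusted p = 1.36e-15) in MCF10A, and the 2 other probe sets gave -1.91 and -1.11 in MDA-MB-231 and -1.59 and -0.13 in MCF10A. COL8A2, whose chain also forms type VIII collagen, was dim and not called.

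COL15A1, a multiplexin of vascular and epithelial basement membranes, rose in MDA-MB-231. It stood at 6.91, 7.26, 7.17 and 7.34 in MDA-MB-231 cells with 2DG, against 4.00, 4.27, 4.06 and 4.06 on vehicle, and at 3.15, 3.37, 3.13 and 3.06 in MCF10A cells with 2DG, against 3.30, 3.22, 3.17 and 3.09 on vehicle. The MDA-MB-231 groups were more than 2 log2 units apart, and the MCF10A groups overlapped at low values. The change was 3.07 ± 0.09 (limma adjusted p = 6.93e-14) in MDA-MB-231 and -0.02 ± 0.09 (limma adjusted p = 0.892) in MCF10A. Its vehicle mean of 4.10 in MDA-MB-231 lay under the dim line, so no fold is given, and COL15A1 had 1 probe set. COL18A1, the related precursor of endostatin and outside the rule for named genes, changed by -0.33 in MDA-MB-231 (limma adjusted p = 0.00294) and -0.16 in MCF10A (limma adjusted p = 0.121).

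COL16A1, of the collagens that sit along fibres (FACIT), rose in MCF10A. It stood at 6.73, 6.99, 6.80 and 6.59 in MDA-MB-231 cells with 2DG, against 6.97, 6.76, 6.74 and 6.86 on vehicle, and at 9.72, 9.83, 9.85 and 9.94 in MCF10A cells with 2DG, against 7.87, 7.87, 7.95 and 7.85 on vehicle. The groups overlapped in MDA-MB-231 and were apart in MCF10A, with changes of -0.06 in MDA-MB-231 (limma adjusted p = 0.589) and 1.95 ± 0.07 in MCF10A (limma adjusted p = 8.06e-13). Of the 10 FACIT chains, 2 rose and 1 fell in each line, 30% beside 50.9% of all genes in MDA-MB-231 and 54.2% in MCF10A. COL12A1, named after its values were seen, fell by 0.51 in MDA-MB-231 and 0.14 in MCF10A, the second not called with the actin ratio in the fit, while another of its probe sets rose by 1.52 in MCF10A.

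COL13A1, a transmembrane collagen of cell junctions, stood at 12.52, 12.47, 12.51 and 12.46 in MDA-MB-231 cells with 2DG, against 12.92, 13.09, 13.01 and 13.09 on vehicle, and at 6.47, 6.45, 6.57 and 6.64 in MCF10A cells with 2DG, against 7.12, 6.97, 6.98 and 6.88 on vehicle. It was lower on every 2DG array in both lines, by 0.54 in MDA-MB-231 (limma adjusted p = 3.64e-07) and 0.46 in MCF10A (limma adjusted p = 2.28e-06). Its other probe sets gave -0.43 and -0.15 in MDA-MB-231, and -0.18 and 0.215 in MCF10A. Called changes among the dim members were those of COL21A1, 0.74 in MDA-MB-231 and 0.51 in MCF10A, and, in MCF10A, of COL24A1 (0.59), COL4A4 (0.50) and COL28A1 (0.40, a call lost with the actin ratio in the fit). Since dim was set by the highest group mean, a large rise takes a gene out of this class, and no share is read from it.

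Changes on the other probe sets of a gene are a check that the choice of the brightest did not set. In MDA-MB-231, 19 called members had other probe sets, and 9 of them had at least 1 with the opposite sign, called only for P4HA2. In MCF10A it was 8 of 23, called for COL11A2 and COL12A1. As the mean of all probe sets, several called changes were over 1.5 times smaller. In MDA-MB-231 they were 0.99 for COL27A1, 0.61 for COL3A1, 0.215 for COL1A1, 0.28 for LOX, 0.12 for COL6A1 and -0.50 for COL4A5, while that of PLOD2 was larger at 0.87. In MCF10A they were 0.90 for COL1A1, 0.58 for P4HA2, 0.55 for LOX, 0.525 for COL27A1, 0.06 for COL6A1 (no longer called), 0.39 for P4HA1, 0.27 for COL4A5, -0.14 for COL13A1 and -1.32 for COL8A1. The plot of all probe sets shows COL7A1 and PLOD2 with probe sets on 1 side of 0 in each line, and COL1A1, LOX and COL27A1 with the other probe sets nearer 0 than the brightest. For COL1A1 in MCF10A this did not follow brightness. The second-brightest probe set (mean 8.31 over the arrays) changed by 0.02, and a dimmer one (mean 6.58) by 1.36.

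The difference between the 2 responses was tested directly. It was called for 24 members, 11 with a more positive response in MDA-MB-231 and 13 with a more negative one, or 43.6% beside 45.8% of all genes (22.3% more positive and 23.6% more negative). Differences of at least 1 log2 unit were called for 4 members upward (3.74% of all genes) and 6 downward (5.16% of all genes). The most positive differences were those of COL15A1 (3.09 ± 0.13, limma adjusted p = 8.87e-12), SERPINH1 (1.68 ± 0.11), COL3A1 (1.55 ± 0.16, limma adjusted p = 4.14e-07) and COL6A3 (1.44 ± 0.16, limma adjusted p = 8.35e-07). Without shared probe sets that of COL3A1 was -0.085 (limma adjusted p = 0.685). The most negative were those of COL5A2, COL7A1, COL16A1 (-2.01 ± 0.11, limma adjusted p = 1.55e-10) and COL4A5 (-1.93 ± 0.14, limma adjusted p = 6.46e-09). Without shared probe sets that of COL4A5 turned to 0.39 and was called (limma adjusted p = 0.0223). For COL1A1 and LOX, which rose in both lines, the response was smaller in MDA-MB-231 by 1.66 (limma adjusted p = 1.39e-07) and 0.84 (limma adjusted p = 8.93e-07). That of COL1A1 depended on the probe set. The other COL1A1 probe sets gave differences of 0.025, -0.98, 0.0025 and -0.80. Only the negative ones were called (limma adjusted p over all probe sets = 0.00709 and 0.000149).

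On vehicle, MDA-MB-231 cells had higher values than MCF10A cells for 15 members and lower values for 17, together 58.2% beside 56% of all genes (29.2% higher and 26.8% lower). By at least 1 log2 unit, 11 members were higher (6.76% of all genes) and 7 lower (6.19% of all genes). Groups did not overlap for 28 members (52.7% of all genes). The largest differences upward were those of COL13A1 (6.04 ± 0.06, limma adjusted p = 5.06e-20), COL8A1 (3.43 ± 0.05, limma adjusted p = 6.97e-18), COL5A1 (3.13 ± 0.17, limma adjusted p = 5.21e-11), COL6A3 (2.20 ± 0.11), LOX (1.93 ± 0.06) and LOXL4 (1.82 ± 0.11). The largest downward were those of COL4A6 (-6.85 ± 0.19, limma adjusted p = 1.61e-14), COL4A5 (-4.97 ± 0.10, limma adjusted p = 1.89e-16), COL1A1 (-1.66 ± 0.11), P4HA2 (-1.38 ± 0.04), PLOD2 (-1.34 ± 0.04) and COL5A2 (-1.28 ± 0.09). The MDA-MB-231 vehicle mean of COL4A6 was 4.42, under the dim line, so the size of its difference is uncertain. The same holds for COL5A1 and LOXL4, whose MCF10A vehicle means were 5.39 and 5.86. The sizes depended on the probe sets: as the mean of all probe sets the differences were 3.70 for COL13A1, 0.81 for LOXL4, -4.29 for COL4A6, -2.68 for COL4A5, -0.59 for COL1A1 and -0.80 for P4HA2. Without shared probe sets COL4A5 differed by -0.39 (limma adjusted p = 0.00147). The other LOXL4 probe set had the opposite sign (-0.20, limma adjusted p over all probe sets = 0.0458), and 9 of the 24 members called on vehicle that had other probe sets had at least 1 of opposite sign, called for COL4A3 and LOXL4. The oxidases LOX, LOXL1, LOXL2 and LOXL4 were higher in MDA-MB-231, while LOXL3 was lower (-0.52, limma adjusted p = 9.8e-06). The hydroxylases P4HA2, P4HA3, PLOD1, PLOD2 and PLOD3 were lower, while P4HA1 differed by 0.01 (limma adjusted p = 0.95). The array values behind the largest differences listed here are those given above, while those of LOXL2 and P4HA3 are not printed.

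With 2DG, 19 members were higher and 18 lower in MDA-MB-231 than in MCF10A, together 67.3% beside 59.5% of all genes (30.7% higher and 28.8% lower). By at least 1 log2 unit, 12 members were higher (8.69% of all genes) and 7 lower (9.23% of all genes), and the groups did not overlap for 33 members (56.3% of all genes). SERPINH1 was higher by 1.49 with 2DG, against -0.19 on vehicle, and COL4A1 was higher by 0.44 with 2DG, against -0.33 on vehicle. COL7A1 was lower by 1.80 with 2DG, where it was higher by 0.22 on vehicle. COL15A1 was higher by 3.99 with 2DG, against 0.90 on vehicle, and COL5A2 differed by -3.91 with 2DG, against -1.28 on vehicle. The COL15A1 means lay under the dim line in MCF10A (3.18 with 2DG, 3.19 on vehicle) and in MDA-MB-231 on vehicle (4.10). The COL5A2 mean lay under it in MDA-MB-231 with 2DG (4.75). The sizes of these differences are thus uncertain. LOXL1 differed by -0.13 with 2DG (limma adjusted p = 0.12), against 1.15 on vehicle (limma adjusted p = 3.04e-10). These comparisons share their arrays with the 2DG responses and are not separate evidence of them.

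**Figure D4:**
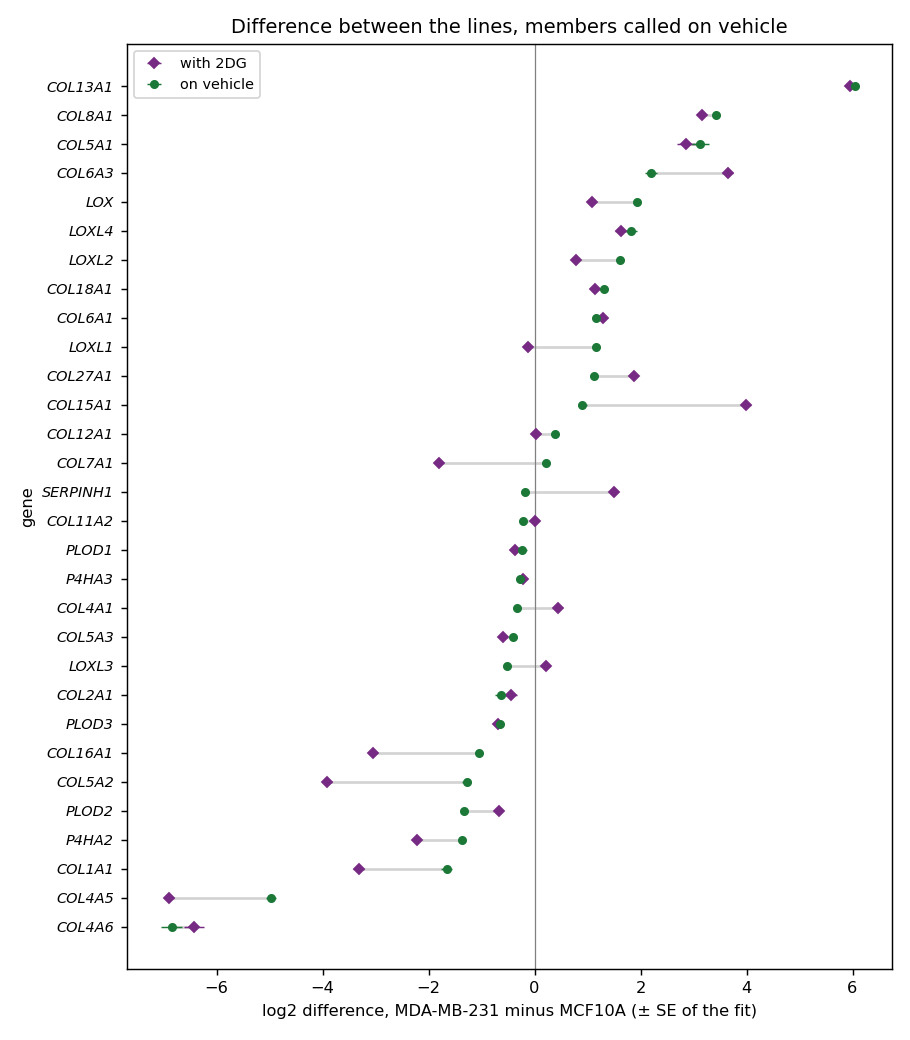
Log2 difference, MDA-MB-231 minus MCF10A (x axis, ± SE of the fit), with 2DG (diamonds) and on vehicle (circles), for the 30 members called on vehicle that were not dim (y axis). COL13A1 lies at the upper end under both conditions, the lower end is COL4A5 with 2DG and COL4A6 on vehicle, and COL15A1, COL5A2, COL7A1 and SERPINH1 have long lines between their points.

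A list of 50 other genes of collagen making, export, trimming and binding was followed beside the members, and 48 had a value. With 2DG, 18 rose and 11 fell in MDA-MB-231, and 19 rose and 16 fell in MCF10A. That is 60.4% called in MDA-MB-231 beside 50.9% of all genes, and 72.9% in MCF10A beside 54.2% of all genes. The median log2 change of the 48 was 0.06 in MDA-MB-231 and 0.03 in MCF10A. P4HB, the shared subunit of prolyl 4-hydroxylase, averaged 13.51 ± 0.0424 in MDA-MB-231 cells with 2DG and 12.55 ± 0.125 on vehicle, and 13.33 ± 0.0115 in MCF10A cells with 2DG and 12.60 ± 0.0208 on vehicle (SD, n = 4 each). Its change was 0.96 in MDA-MB-231 (limma adjusted p = 5.26e-11) and 0.74 in MCF10A (limma adjusted p = 1.17e-09). P4HB is outside the rule for named genes. BMP1, which trims the ends of procollagen, rose by 0.46 in MDA-MB-231 (limma adjusted p = 1.78e-06) and 1.53 in MCF10A (limma adjusted p = 3.45e-13). PCOLCE2, an enhancer of that trimming, changed by -1.41 in MDA-MB-231 (limma adjusted p = 4.64e-08) and -1.835 in MCF10A (limma adjusted p = 1.33e-09). Its MCF10A mean of 5.57 with 2DG lay under the dim line, so the size of the fall there is uncertain.

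DCN, the fibre-binding proteoglycan decorin and also 1 of the fibroblast markers, rose by 1.77 in MCF10A (limma adjusted p = 6.97e-10) and changed by 0.08 in MDA-MB-231 (limma adjusted p = 0.624). The whole fibroblast list had array means of 6.33 to 6.47 in MCF10A cells with 2DG and 6.32 to 6.43 on vehicle, a mean that held opposite changes, since FAP, another of its genes, averaged 7.73 in MCF10A cells with 2DG and 9.26 on vehicle (limma adjusted p = 1.94e-09). ITGA1 and ITGA10 encode collagen-binding integrin subunits, and each moved the same way in both lines. ITGA1 changed by -0.29 in MDA-MB-231 (limma adjusted p = 0.0401) and -1.35 in MCF10A (limma adjusted p = 1.37e-08). With 2DG the ITGA1 mean in MCF10A, 5.60, lay under the dim line, so the size of that fall is uncertain. ITGA10 rose by 1.32 in MDA-MB-231 (limma adjusted p = 5.02e-10) and 0.35 in MCF10A (limma adjusted p = 0.00133). FKBP14 and FKBP7 are prolyl isomerases of the endoplasmic reticulum. FKBP14 rose by 1.12 in MDA-MB-231 (limma adjusted p = 2.55e-12) and fell by 0.86 in MCF10A (limma adjusted p = 4.4e-11). FKBP7 changed by -1.51 in MDA-MB-231 (limma adjusted p = 2.13e-11) and -0.95 in MCF10A (limma adjusted p = 5.63e-09). ADAMTS3, a procollagen N-propeptidase, changed by -1.5025 in MDA-MB-231 (limma adjusted p = 5.9e-09) and -0.49 in MCF10A (limma adjusted p = 0.00141). Its means lay under the dim line with 2DG in MDA-MB-231 (4.62) and in both MCF10A groups (4.21 with 2DG, 4.70 on vehicle). The sizes of its changes are thus uncertain.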

How the data were processed

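The deposited table holds log2 values that the authors made with RMA, per the submitters' processing notes, for 54675 probe sets on 16 arrays. RMA sets all arrays to 1 distribution, so a shift of all genes cannot be seen, and 3'-primed labelling lets RNA integrity affect values. Probe sets were named through the platform annotation, 41097 with 1 gene and 1801 with several, which were left out. The brightest probe set stood for each of 19775 genes. limma 3.58.1 in R 4.3.3 fitted 4 group means (lmFit, eBayes, 12 residual degrees of freedom, two-sided), with Benjamini-Hochberg adjustment over all genes and a threshold of 0.05. On simulated data with 100 genes of each size changed, 100% of changes of 1 log2 unit and 95% of changes of 0.5 were recovered in MDA-MB-231, and 100% and 89% in MCF10A. False calls came to 13 in MDA-MB-231 and 12 in MCF10A. The simulation changed 200 genes and drew independent noise, so it does not show how calls behave where many genes change or an array deviates. Alternatives were another choice of probe set, renormalization, a replicate block, an actin covariate and leaving out arrays. Array values were printed for called members with a 2DG change of at least 1, the 6 leading each way between lines on vehicle, the 4 each way for the difference of responses, and the hydroxylases PLOD1 to PLOD3, P4HA1 and P4HA2, SERPINH1, LOX and COL1A1, COL4A1, COL4A2, COL5A1, COL6A1, COL6A2 and COL7A1; of pathway genes, the 2 largest called each way. Members, lists and this rule were chosen with earlier results of these data known. Replicas are separate samples per the labels. The number of arrays limits the precision.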

Additional observations from a re-analysis of the deposited data

Results flagged for a closer look

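Single arrays stood apart in 6 of 108 groups of 4 examined (5.56%), by Dixon's criterion at the 95% level, which flags about 1 group in 20 by chance. In MDA-MB-231 cells with 2DG, COL4A1 was 10.26 on replicate A, beside a median of 10.17 on the others. On vehicle, MDA-MB-231 replicate B was high for LOXL1, at 9.10 beside 8.75, and for SERPINH1, at 11.38 beside 11.02. This was the array with the actin 3'/5' ratio of 1.09, and the part of that ratio in these values was not tested. COL6A2 was 6.72 on MDA-MB-231 vehicle replicate D, beside 6.91. In MCF10A, COL3A1 was 5.05 on 2DG replicate D, beside 4.96, and COL7A1 was 7.80 on vehicle replicate B, beside 8.11.

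The 2DG response differed between the lines, by the test of the difference itself, for 19 of the 27 members named in detail. Over all genes 45.8% were called. The 27 were picked partly by this difference and by the size of the 2DG changes, so no share is read from the count. The values are MDA-MB-231 minus MCF10A. They were positive for COL15A1 (3.09), SERPINH1 (1.68), COL3A1 (1.55), COL6A3 (1.44), COL4A2 (0.89), COL4A1 (0.77), COL27A1 (0.76), LOXL3 (0.74) and PLOD2 (0.67). They were negative for COL5A2 (-2.64), COL7A1 (-2.02), COL16A1 (-2.01), COL4A5 (-1.93), COL1A1 (-1.66), LOXL1 (-1.29), LOX (-0.84), P4HA2 (-0.84), P4HA1 (-0.53) and COL8A1 (-0.26).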

How the results depend on the processing

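Leaving out probe sets whose IDs mark them as possibly shared between transcripts (_s_at, _x_at or _a_at) left 45 members and moved several counts by over 1.5 times: 5 members rose in MDA-MB-231, 11 rose and 6 fell in MCF10A, 7 had a more positive response in MDA-MB-231 and 10 were higher in MDA-MB-231 with 2DG. Fewer members tested accounts for part of this by construction. The other alternatives kept the counts within 1.5 times. Leaving out 1 array at a time gave 13 to 15 rises and 11 to 13 falls in MDA-MB-231, 16 to 19 and 9 to 13 in MCF10A, 9 to 11 and 13 to 14 for the difference of responses, 14 to 17 and 14 to 20 between the lines on vehicle, and 18 to 20 and 16 to 19 with 2DG. Of the values of the named members under alternatives, 679 were labelled the same, 36 lost the call, 9 gained it and 7 reversed. A change of sign counted as reversed only if at least 1 of the fits was called. The 679 thus include changes of sign with neither fit called, such as SERPINH1 in MDA-MB-231 with the actin ratio in the fit (-0.14). Without shared probe sets, COL3A1 changed by -0.06 and COL6A1 by -0.0375 in MDA-MB-231, COL4A5 by 0.20 in MDA-MB-231 and -0.19 in MCF10A, and the differences of responses were -0.085 for COL3A1 and 0.39 for COL4A5 (limma adjusted p = 0.0223). As the mean of all probe sets, P4HA2 changed by -0.28 in MDA-MB-231 (limma adjusted p = 7.19e-05). The cause was not tested.

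With the actin ratio in the fit, the MDA-MB-231 calls lost were those of COL1A1, COL7A1, P4HA1 and PLOD3 (COL4A2 and COL19A1 gained), and the MCF10A calls lost those of COL5A3, COL12A1, COL28A1 and LOXL4 (LOXL1, PLOD1 and COL19A1 gained). The MDA-MB-231 calls lost here were kept without vehicle replicate B, the vehicle array with the high ratio. Restricting the fit to the arrays compared was not run for the difference of responses, which uses all arrays. In MCF10A, deviations of same-lettered arrays correlated at 0.04 to 0.088, beside -0.117 to 0.069 for different letters. Each MCF10A 2DG array correlated most, though weakly, with the vehicle array of its own letter. In MDA-MB-231 the values were -0.099 to 0.019 for the same letter and -0.07 to 0.089 for different letters. With the letter as a replicate block, 14 members rose and 12 fell in MDA-MB-231, 17 and 11 in MCF10A, 10 and 13 for the difference, 15 and 17 on vehicle, and 20 and 18 with 2DG. Arrays give no counts, so dim members have little signal over background.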

Other observations

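The genes below come from the list followed beside the members and were picked after their values were seen. P3H2, a prolyl 3-hydroxylase of basement membrane collagen, averaged 10.13 ± 0.0435 in MDA-MB-231 cells with 2DG and 11.19 ± 0.0222 on vehicle, and 11.14 ± 0.0265 in MCF10A cells with 2DG and 9.76 ± 0.0695 on vehicle (SD, n = 4 each). It fell by 1.06 in MDA-MB-231 and rose by 1.39 in MCF10A, and the difference of responses was -2.45 (limma adjusted p = 1.55e-14). P3H1, the prolyl 3-hydroxylase of fibrillar collagen, rose by 0.69 in MDA-MB-231 (limma adjusted p = 2.36e-09) and 0.64 in MCF10A (limma adjusted p = 4.5e-09). MIA3, MIA2 and SEC24D serve the vesicles that carry procollagen out of the endoplasmic reticulum. MIA3 rose by 0.88 in MDA-MB-231 and 0.72 in MCF10A, MIA2 by 0.56 in MDA-MB-231 and 0.73 in MCF10A, and SEC24D by 0.80 in MDA-MB-231 and 0.99 in MCF10A, each with a limma adjusted p no higher than 7.16e-08. Other export genes of the list went different ways: PREB changed by 0.17 in MDA-MB-231 and -0.27 in MCF10A, and SEC23A by 0.26 in MDA-MB-231 and -0.15 in MCF10A, all called. SEC13 changed by 0.28 in MDA-MB-231 and -0.03 in MCF10A (limma adjusted p = 0.521), and KLHL12 by -0.03 in MDA-MB-231 (limma adjusted p = 0.51) and 0.45 in MCF10A. FKBP10, an isomerase that works with PLOD2, changed by -0.10 in MDA-MB-231 (limma adjusted p = 0.559) and fell by 1.12 in MCF10A (limma adjusted p = 4.22e-07). Its MDA-MB-231 means of 5.79 with 2DG and 5.88 on vehicle lay under the dim line, where a change is hard to see. TMEM38B, a channel of the endoplasmic reticulum needed for collagen modification, changed by -0.01 in MDA-MB-231 (limma adjusted p = 0.954) and fell by 0.93 in MCF10A (limma adjusted p = 2.42e-10).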
